A study of Mus musculus with 4 samples.

Results

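The 9 receptor genes listed next were followed on the arrays: the targeted gene Ackr4 (Ccrl1 in older annotation), the atypical receptor Ackr3 (formerly Cxcr7), the related receptor Ccrl2, and the signalling chemokine receptors Ccr7, Cxcr5, Cxcr4, Ccr6, Ccr9 and Cxcr3. They were taken as every probe whose gene name in the scanner files was one of these names, which gave 9 of 29924 gene names and 11 of 39429 probes, each spotted 4 times. Ackr4 and Ccr9 had 2 probes each and the other genes 1. The cells were spleen B cells of male mice, purified with magnetic beads and stimulated in culture for 3 days with anti-IgM and anti-CD40, each at 10 µg/mL. In each of 2 experiments with different donors, 1 array carried B cells of an Ackr4-deficient mouse line (Ackr4ko, donors of 73 and 71 days) and 1 array those of C57BL/6 (WT, donors of 77 and 74 days), so each genotype had 2 arrays. How the Ackr4 allele was made, and which part of the gene it lacks, is not given in the sources used here. In the array values, fewer cells expressing a gene and less RNA per cell cannot be told apart.

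Chemokine receptors are seven-transmembrane proteins that couple to inhibitory G proteins and steer cells along chemokine gradients. In B cells CXCR5 directs entry into the follicle towards CXCL13, CCR7 directs movement to the T cell zone towards CCL19 and CCL21, and CXCR4 retains cells where CXCL12 is made. Atypical receptors bind chemokines without this G protein signalling and remove them: ACKR4 takes up CCL19, CCL21 and CCL25, which are also the ligands of CCR7 and CCR9, and ACKR3 takes up CXCL12, the ligand of CXCR4.

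The comparison asked how these receptors differ between activated B cells with and without Ackr4, and which probe stands for each receptor decides what is read. The first 30 of the 60 bases of 6 probes are shown 5′ to 3′, as the scanner files give them: both probes of Ackr4 and of Ccr9, because these genes were at or near background, and the probes of Ccrl2 and Cxcr3, which gave the largest differences among the receptors that could be tested.
Ackr4 probe 1: tgtgcatcttcaccacagtggtgggtattc
Ackr4 probe 2: atttgtgttacaccgagacccaaccatcaa
Ccr9 probe 1: ctcagatcctctttaagagtgttatatagt
Ccr9 probe 2: caggcaagaggcacttgctgcaggttctcc
Ccrl2: gcaggaggcatctcacaaatgcaagtataa
Cxcr3: gccaggcgttgtcagcactgaatgtgccca
The Ackr4 probes lie on the minus strand at chr9:104000628-104000688 and chr9:104000864-104000923 (mm9), the first designed on an alternatively spliced mRNA and the second on the reference transcript. Ccr9 probe 1, designed on an unclassified cDNA clone of neonatal thymus, lies at chr9:123680935-123680994, and Ccr9 probe 2, designed on the reference transcript, lies 9.34 kb further along at chr9:123690334-123690393, both on the plus strand. Ccrl2 (chr9:110957397-110957456, minus strand) and Cxcr5 (chr9:44320071-44320130, minus strand) are on the same chromosome as Ackr4, 6.96 and 59.7 Mb away from it, and Ccr9 is 19.7 Mb away. Ccr7 (chr11:99005551-99005610), Cxcr4 (chr1:130485079-130485138) and Cxcr3 (chrX:98926920-98926979) are on the minus strand, and Ackr3 (chr1:92111803-92111862) and Ccr6 (chr17:8449933-8449992) on the plus strand. Exon and UTR positions of the probes were not used here, since no mm9 annotation was at hand.

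Levels are given as log2 of the processed signal after each array was scaled to a common 75th percentile, and a probe counts as detected on an array where at least 50% of its unflagged spots were well above background. The array labelled WT replicate 2 stood apart: 42.2% of probes were detected on it against 49.5 to 54.9% on the others, 6.24% of its spots were flagged as outliers against at most 2.12%, and 1.34% of tested probes had spots that scattered by an SD above 1 against at most 0.259%. All 10 B cell markers were detected on all 4 arrays. Their summed level was 316419 to 353087 on the arrays labelled Ackr4ko and 388542 to 422638 on those labelled WT. Macrophage and monocyte markers gave 29067 to 38258 and 47974 to 50129, with Lyz2, Cd14 and Vcam1 detected on no array, and stromal and endothelial markers gave 431 to 666 and 842 to 921, with Col1a1, Col3a1, Lyve1 and Prox1 detected on no array. Neutrophil markers gave 1128 to 1193 on the arrays labelled Ackr4ko and 979 to 1039 on those labelled WT, with S100a8, S100a9, Mpo and Retnlg detected on no array, and plasma cell markers overlapped (23103 to 26190 and 21705 to 23445). For T cells (3207 to 4573 and 3430 to 4372) and NK cells (719 to 1299 and 743 to 919) the groups overlapped too, and 5 of 6 NK markers were detected on no array. The sums follow each list's brightest genes, such as Mpeg1 and Pecam1. Log2 differences (labelled Ackr4ko minus WT) in experiments 1 and 2 were -0.46 and -1.09 for Mpeg1, but 0.85 and 0.18 for Cd68. For Pecam1 they were -0.58 and -1.59. Of 10 tested B cell markers, 3 were lower and 1 higher in both experiments. For 5 tested macrophage and monocyte markers these were 2 and 1, and for 3 stromal and endothelial ones 1 and 1. Over all tested genes the shares were 20.9% and 33.0%. The part of the marker differences in the receptor values was not tested.

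The labels of the arrays are not settled. Within either experiment, a column of the authors' value table named for 1 genotype holds the readings of the scanner file named for the other. Over 16207 probes the log2 values of its 4 columns scattered around that array by an SD of 0.0203 to 0.120, and around the array of their own name by 0.450 to 0.554. Genotypes are therefore written as the scanner files label them, and every direction is the opposite one if the names in the value table are correct.

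Ackr4 was not detected on any array. Probe 1 gave a level of 2.35 on the array labelled Ackr4ko replicate 1, 2.74 on WT replicate 1, 3.32 on Ackr4ko replicate 2 and 4.63 on WT replicate 2, and probe 2 gave 2.44, 2.83, 3.39 and 4.69. None of its spots was well above background. The median level of all probes below background was 2.45, 2.82, 3.39 and 4.67 on the same arrays, so both probes sat at each array's own background, and their order across arrays is the order of the backgrounds. With the arrays labelled WT below background as well, the probes check neither set of labels, and no fold is given for Ackr4. In the authors' value table probe 1 stood at 15, the lowest value of that table, in all 4 columns, and probe 2 at 16, 16, 21 and 17.

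The other atypical receptor in this set, Ackr3, was detected on all 4 arrays. Its level was 9.01 on Ackr4ko replicate 1 and 9.25 on Ackr4ko replicate 2, against 8.60 on WT replicate 1 and 8.57 on WT replicate 2. The groups did not overlap. The log2 difference, labelled Ackr4ko minus WT, was 0.41 in experiment 1 and 0.68 in experiment 2, and 0.55 ± 0.33 over both (SE, n = 2 per group, limma adjusted p = 0.9997). The 95% interval of that difference ran from -0.21 to 1.30, so a difference of up to 2-fold in the same direction lies inside it. One of the 4 spots on WT replicate 2 read 9.24, apart from the others at 8.20 to 8.50.

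Ccrl2, which binds the chemoattractant chemerin and presents it to neighbouring cells, was among the tested receptors with the largest differences, beside Cxcr3. Its level was 7.67 on Ackr4ko replicate 1 and 7.37 on Ackr4ko replicate 2, against 6.59 and 6.27 on the matching arrays labelled WT. The groups did not overlap, and the log2 difference of 1.08 in experiment 1 and 1.10 in experiment 2 made it the 1 tested receptor that was at least 2-fold higher in both by the mean of its spots. Over both experiments the difference was 1.09 ± 0.35 (SE, n = 2 per group, 95% interval 0.31 to 1.87), a fold of 2.13, with a limma p of 0.0114 that did not pass after adjustment over all 20862 tested probes (adjusted p = 0.735). With the experiment as a block the limma adjusted p was 0.0628, from an SE pooled over all probes and the same for every tested receptor.

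The value in experiment 2 rests on few spots. On WT replicate 2 none of the 4 Ccrl2 spots was well above background: 3 of them read 6.67 to 6.87 and the fourth read 4.77. With the median of the spots in place of their mean, the difference in experiment 2 was 0.57 and that in experiment 1 was 1.04. With background corrected by normexp in place of the scanner's own correction, the difference over both was 0.55, smaller than that of Cxcr3 (-0.73), and with spot medians the values were 0.80 and -0.79. The error of the difference from the spread of spots alone was 0.12 in experiment 1 and 0.52 in experiment 2. In the authors' value table Ccrl2 stood at 151 and 321 in the columns labelled Ackr4ko and WT of experiment 1, and at 194 and 237 in those of experiment 2, so the pair of experiment 2 differed less there as well.

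Some dendritic cell markers were higher on the same arrays as Ccrl2, a gene that dendritic cells also express. Of 9 such markers, 6 were tested and 0 passed the limma test without a block, while 5 had an unadjusted p under 0.05, as had 4.58% of all tested genes. With the experiment as a block, limma passed 3 of them as higher (Batf3, Fscn1 and Ccl22), where 3.31% of all genes passed. In that fit the spread was pooled over all genes, and after quantile normalization the blocked fit passed 0 of 20862 probes. Batf3 and Fscn1 were detected on the arrays labelled Ackr4ko alone, so they entered the test through the group where they were high. Ccl22, a chemokine, was detected on all 4 arrays, with a level of 10.93 against 9.20 in experiment 1 and 11.87 against 8.92 in experiment 2, labelled Ackr4ko first. Siglech, a marker of plasmacytoid dendritic cells, differed by -0.21 and 0.20. The summed level of the list overlapped between the groups (64712 to 79155 on the arrays labelled Ackr4ko and 63457 to 65113 on those labelled WT), and was the lower on the array labelled Ackr4ko in experiment 1. This sum mostly follows Siglech, the brightest of the list, and says little about the other markers. The level of Siglech was 15.66 against 15.87 in experiment 1 and 16.03 against 15.83 in experiment 2, labelled Ackr4ko first. Flt3 and Zbtb46 were detected on all 4 arrays. Their differences in experiments 1 and 2 were 1.30 and 0.84 for Flt3, and 0.66 and 1.33 for Zbtb46. Of the 6 tested markers, 5 were higher in both experiments, Batf3 and Fscn1 among them, and 0 were lower in both. Over all tested genes these shares were 33.0% and 20.9%. Itgax, Xcr1 and Clec9a were not detected on any array. Which cells expressed the detected markers, and their part in the Ccrl2 values, was not tested.

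**Figure D1:**
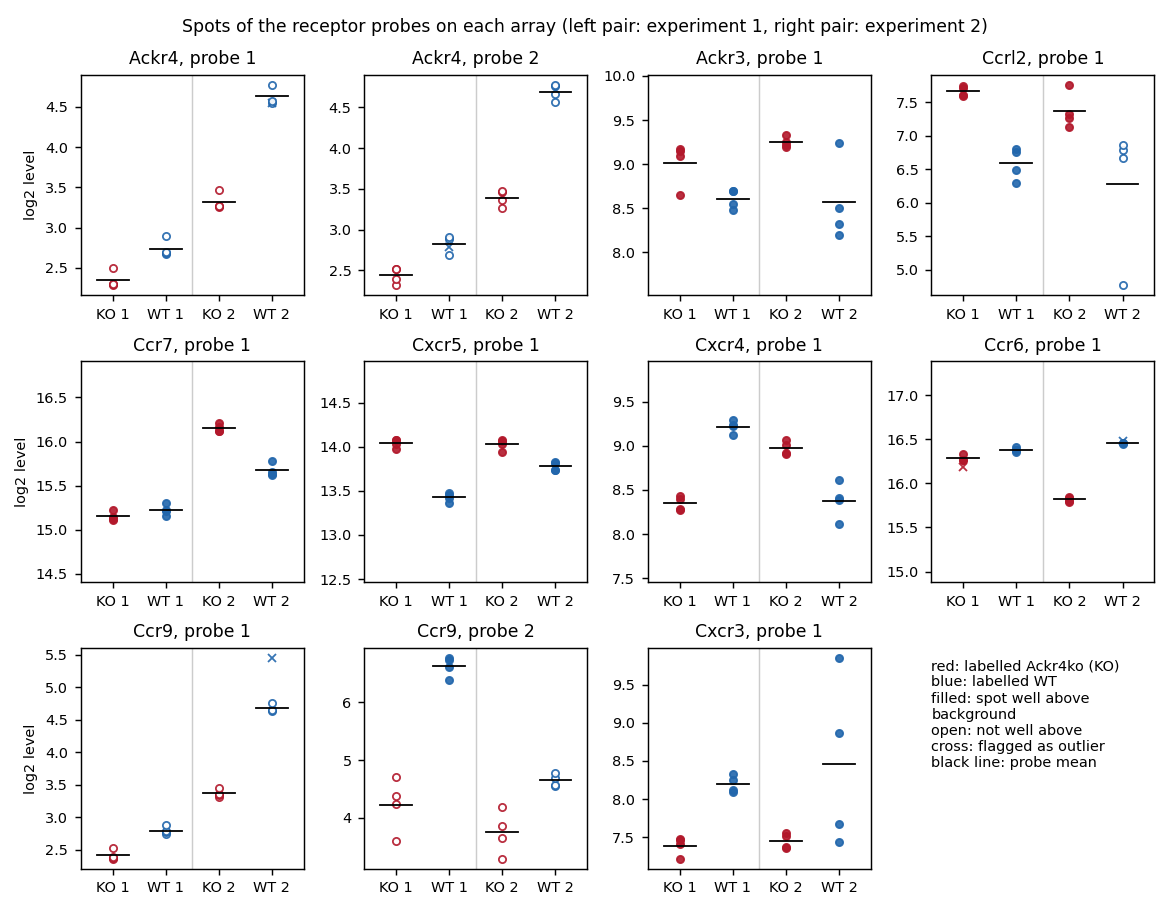
Log2 level of every spot of the 11 receptor probes (vertical axis, own scale per panel) on the 4 arrays (horizontal axis, experiment 1 left of the grey line); filled points are spots well above background, open points are not, crosses are flagged outliers and black lines are probe means. Both Ackr4 probes and Ccr9 probe 1 have no filled point, Ccr9 probe 2 has filled points on WT replicate 1 alone, and on WT replicate 2 the Cxcr3 spots spread from 7.43 to 9.85.

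Of the receptors that place B cells in lymphoid tissue, Ccr7 was detected on all 4 arrays with spots that scattered by an SD of at most 0.0752. Its level was 15.15 against 15.23 in experiment 1 and 16.15 against 15.67 in experiment 2, labelled Ackr4ko first. The order of the genotypes thus differed between the experiments, at -0.074 and 0.48, and the groups overlapped. The log2 difference over both was 0.20 ± 0.42 (SE, n = 2 per group, limma adjusted p = 0.9997, 95% interval -0.74 to 1.15). Ccr7, which shares 2 ligands with ACKR4, was higher in experiment 2 than in experiment 1 by 1.00 on the arrays labelled Ackr4ko and by 0.45 on those labelled WT, and both arrays of experiment 2 were above both of experiment 1. Without Ackr4ko replicate 1 the difference was 0.70, and it was 0.43 with WT replicate 2 left out, -0.021 with WT replicate 1 left out and -0.30 with Ackr4ko replicate 2 left out.

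Cxcr5, the follicle-homing receptor, was the steadiest between arrays labelled Ackr4ko, at 14.04 in experiment 1 and 14.03 in experiment 2. On the arrays labelled WT it was 13.43 and 13.78. Both arrays labelled Ackr4ko were thus above both labelled WT, by 0.61 in experiment 1 and 0.25 in experiment 2. The difference over both was 0.43 ± 0.34 (SE, n = 2 per group, limma adjusted p = 0.9997), with a 95% interval from -0.34 to 1.20. The value was 0.25 if WT replicate 1 was left out.

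Cxcr4 ran in opposite directions in the experiments. Its level was 8.35 on Ackr4ko replicate 1 against 9.22 on WT replicate 1, and 8.98 on Ackr4ko replicate 2 against 8.38 on WT replicate 2. The log2 difference was -0.87 in experiment 1 and 0.60 in experiment 2, with an error from the spots of 0.053 and 0.109, which leaves out the variation between animals and between arrays. The groups overlapped and the difference over both was -0.14 ± 0.41 (SE, n = 2 per group, limma adjusted p = 0.9997, 95% interval -1.07 to 0.79). Its sign turned without Ackr4ko replicate 1 (0.18) or WT replicate 1 (0.28), and with each array scaled to its median (0.048), and its value was -0.45 without Ackr4ko replicate 2 and -0.56 without WT replicate 2. The scaling to the median raised the median of all tested probes from 0.080 to 0.265, and the values of the other 6 tested receptors kept their sign under it.

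**Figure D2:**
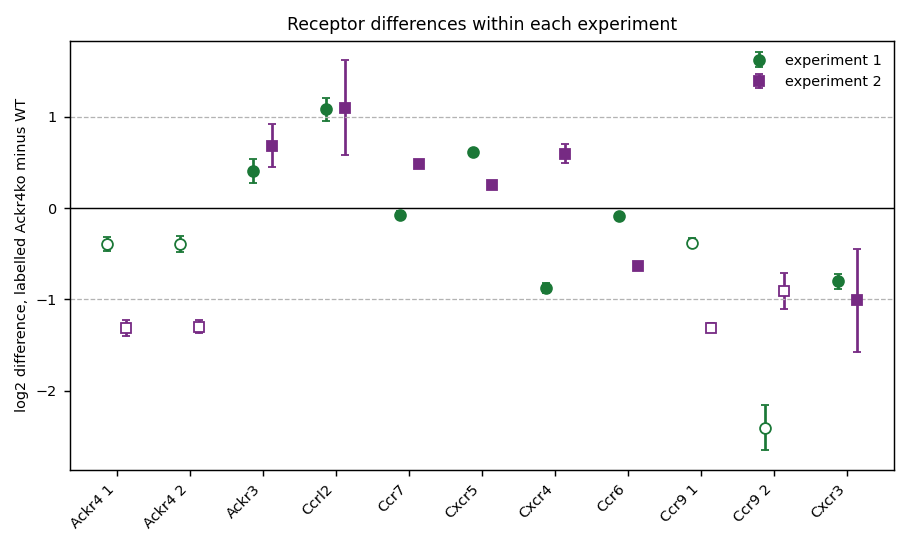
Log2 difference, labelled Ackr4ko minus WT (vertical axis), of each receptor probe (horizontal axis) within experiment 1 (circles) and experiment 2 (squares); bars are the standard error from the spots alone, open symbols are probes not tested, and dashed lines mark 2-fold. Ccrl2 lies above 1 and Ackr3 and Cxcr5 above 0 in both experiments, Cxcr3 and Ccr6 lie below 0 in both, and Cxcr4 (-0.87 and 0.60) and Ccr7 change sides.

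Ccr6, the receptor for CCL20, was detected on all 4 arrays with the smallest scatter of spots on WT replicate 2 (SD 0.00544 over 3 unflagged spots). Its level was 16.29 against 16.38 in experiment 1 and 15.82 against 16.46 in experiment 2, labelled Ackr4ko first. The groups did not overlap, but the arrays of experiment 1 differed by -0.091 while those of experiment 2 differed by -0.64. The difference over both was -0.36 ± 0.35 (SE, n = 2 per group, limma adjusted p = 0.9997, 95% interval -1.15 to 0.42). Ackr4ko replicate 2 set most of it: without that array the difference was -0.13, and without Ackr4ko replicate 1 it was -0.60.

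Ccr9, the gut-homing receptor for CCL25, was not tested, since it was detected on too few arrays. Probe 1 was below background on all 4, with levels of 2.42 against 2.80 in experiment 1 and 3.37 against 4.68 in experiment 2, labelled Ackr4ko first. Probe 2 was detected on 1 array, WT replicate 1, where all 4 spots were well above background and the level was 6.63. On Ackr4ko replicate 1 it was 4.22, on Ackr4ko replicate 2 it was 3.74 and on WT replicate 2 it was 4.65, and none of these spots was well above background. With 1 of 4 arrays detected, no fold is given for Ccr9. The 2 probes assigned to Ccr9 thus gave different readings on WT replicate 1. In the authors' value table probe 2 stood at 156 in 1 column, that labelled Ackr4ko replicate 1, and at 16 to 32 in the others.

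Cxcr3, the receptor for CXCL9, CXCL10 and CXCL11, was lower on the arrays labelled Ackr4ko, with levels of 7.39 and 7.45 in replicates 1 and 2, against 8.19 and 8.46 for the label WT. It was detected on all 4 arrays and the groups did not overlap. The log2 difference was -0.80 in experiment 1 and -1.01 in experiment 2, and -0.91 ± 0.34 over both (SE, n = 2 per group, 95% interval -1.66 to -0.15), with a limma p of 0.0243 and an adjusted p of 0.916. With the experiment as a block the limma adjusted p was 0.196. As for Ccrl2, the array labelled WT replicate 2 carried the weakest measurement: its 4 Cxcr3 spots read 7.43, 7.67, 8.87 and 9.85, an SD of 1.12, against an SD of at most 0.120 on the other arrays. The lowest of these spots lay inside the range of the spots on Ackr4ko replicate 2, which was 7.35 to 7.55. Taking the median of the spots gave a difference of -0.75 for the first experiment and -0.83 for the second. Leaving out WT replicate 2 gave -0.77. In the authors' value table Cxcr3 stood at 459 and 266 in the columns labelled Ackr4ko and WT of experiment 1. In those of experiment 2 it stood at 329 and 277, so that pair differed less there, as for Ccrl2.

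Among the 7 receptor probes that could be tested, 0 passed the adjusted limma threshold of 0.05 without a block and 0 with the experiment as a block. Over all 20862 tested probes 0.024% passed without the block and 3.17% with it. Ccrl2 and Cxcr3 had an unadjusted p under 0.05, which 4.54% of all tested probes had. Groups that did not overlap were seen for 3 receptors higher (Ackr3, Ccrl2, Cxcr5) and 2 lower (Ccr6, Cxcr3) on the arrays labelled Ackr4ko. Of all tested probes, 18.6% were of the first kind and 10.1% of the second. Ccrl2 was at least 2-fold higher within each experiment by the mean of its spots, as were 1.22% of all tested probes, while 0.489% were at least 2-fold lower within each. That standing of Ccrl2 rests on an array where it was not detected, WT replicate 2, and spot medians gave 0.57 there. An exact two-sided permutation test of 2 arrays against 2 cannot give a p below 0.333, and the 5 receptors whose groups did not overlap all reached that value.

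**Figure D3:**
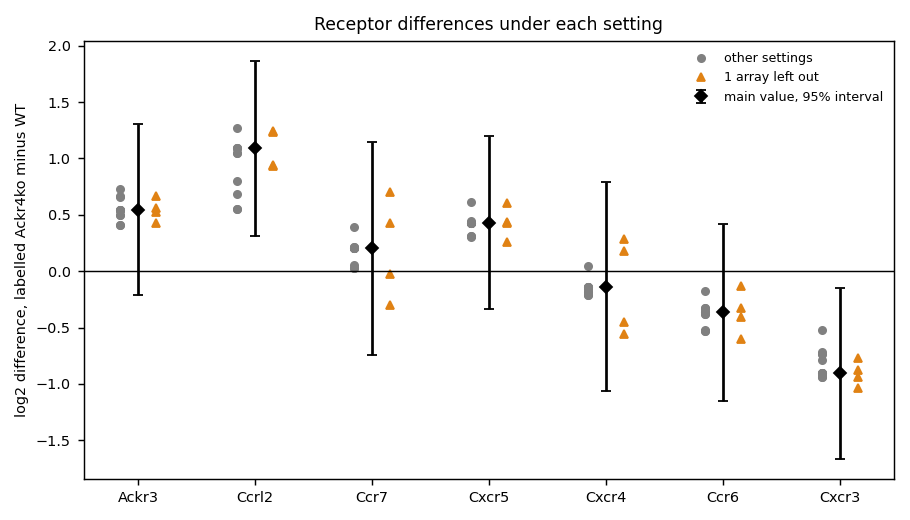
Log2 difference, labelled Ackr4ko minus WT (vertical axis), of the 7 tested receptors (horizontal axis): diamonds with 95% intervals from limma, grey circles other processing settings, with the value table's columns exchanged between genotypes, and orange triangles the values with 1 array left out. The intervals of Ccrl2 (0.31 to 1.87) and Cxcr3 (-1.66 to -0.15) lie on 1 side of 0, while the values of Ccr7 and Cxcr4 with 1 array left out lie on both sides.

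The rest of the chemokine system was read from 3 lists, with each gene taken at its brightest tested probe. Of 19 other chemokine and lymphocyte positioning receptors, 7 were tested and 0 passed the limma test, 2 of them at an unadjusted p under 0.05. Their median log2 difference was -0.42, against 0.083 over all 15982 tested genes, of which 0.0125% passed and 4.58% had an unadjusted p under 0.05. The median had opposite signs in the experiments, at 0.12 in experiment 1 and -1.01 in experiment 2, where it was -0.044 and 0.23 over all tested genes. Ccr1, an inflammatory receptor, was detected on the arrays of experiment 1 alone and differed there by -0.34. S1pr1, the receptor that lets lymphocytes leave lymphoid organs, was detected on all 4 arrays and gave -0.93. The level of S1pr1 was 8.89 against 9.75 in experiment 1 and 8.13 against 9.13 in experiment 2, labelled Ackr4ko first, and the groups did not overlap.

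Of 13 ligands of the 9 receptors or their close relatives, 5 were tested and 0 passed (1 at an unadjusted p under 0.05). Their median was 0.13. The Ackr4 ligands Ccl19 (not detected on WT replicate 2) and Ccl25 gave 0.31 and 0.13, and Ccl21 was not read here. Ccl5, an inflammatory chemokine, gave 2.63, with levels of 9.07 against 6.49 in experiment 1 and 8.47 against 5.79 in experiment 2, labelled Ackr4ko first, though it was not detected on WT replicate 2. Of the CXCR3 ligands, Cxcl10 was not detected on any array, and Cxcl9 was detected on the arrays of experiment 1 alone and differed there by -0.27. The Cxcl11 probe was detected on all 4 arrays and gave -0.071. Its levels of 16.78 to 17.31 were near those of the B cell marker Ms4a1 (16.72 to 17.16). Whether that probe reads Cxcl11 RNA alone was not tested.

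Of 38 genes that carry or end the receptor signal, 37 were tested and 0 passed (3 at an unadjusted p under 0.05), with a median of 0.081. The genes at that unadjusted p included Rgs16 (1.01), which was detected on the arrays labelled Ackr4ko alone. Rgs16 had the lowest limma adjusted p of the list (0.867). The 3 largest differences were Rgs13 (1.82), Rgs1 (1.58) and Rgs2 (1.15), regulators that speed up the shut-off of G protein signals. The level of Rgs13 was 8.32 against 6.32 in experiment 1 and 10.18 against 8.54 in experiment 2, labelled Ackr4ko first. Within each experiment the array labelled Ackr4ko was the higher for Rgs13, Rgs1 and Rgs2, which were picked by their differences over these same arrays. Of the tested genes of this list, 35.1% were higher and 21.6% lower in both experiments. Over all tested genes these shares were 33.0% and 20.9%. With the experiment as a block, limma passed Ccr1 (adjusted p = 0.0283), Ccl5 (1.6e-11), Rgs13 (2.03e-05), Rgs1 (0.000436) and Rgs2 (0.0305), where 3.31% of all genes passed. In that fit the spread was pooled over all genes, so these p-values do not measure the spread of each gene. After quantile normalization the blocked limma adjusted p of these 5 genes was 0.338 to 0.575. The blocked result for Ccr1 rests mostly on the arrays of experiment 2, where it was not detected. Its log2 difference was -1.99 there and -0.34 in experiment 1.

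**Figure D4:**
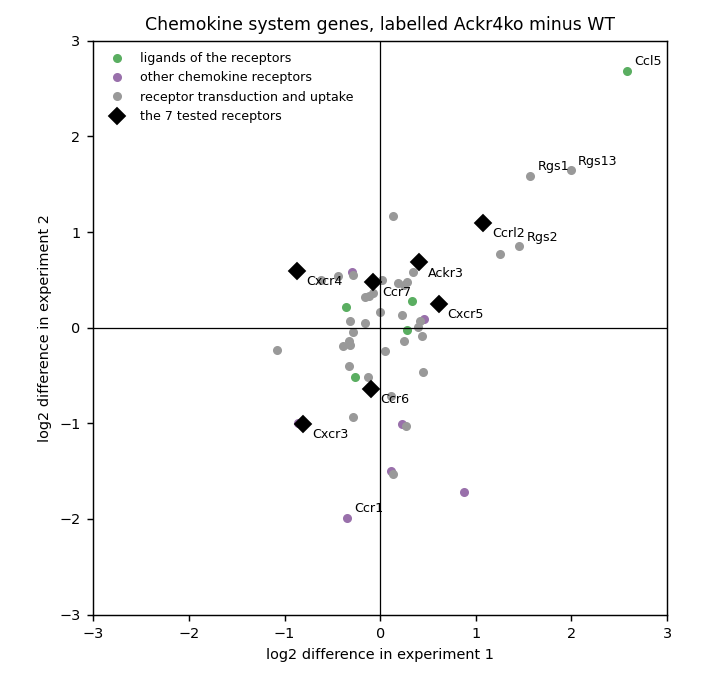
Log2 difference, labelled Ackr4ko minus WT, in experiment 1 (horizontal axis) and experiment 2 (vertical axis) of the 7 tested receptors (diamonds) and of tested genes of the 3 chemokine system lists (circles); named circles passed limma with the experiment as a block. Ccl5 (2.58 and 2.68), Rgs13 and Rgs1 lie farthest to the upper right, beyond Ccrl2 (1.08 and 1.10), and Cxcr4 lies in the upper left.

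Genes with the most similar course over the 4 arrays were found for each tested receptor, as the smallest root mean square difference after subtracting each gene's mean, among 11645 tested genes with an established symbol. For Ackr3 these were Actr8 (0.0104) and Fbxl15 (0.0108), and for Ccrl2 they were Haao (0.0790) and Zfp157 (0.0904). For Ccr7 the nearest was Mrps16 (0.0221), for Cxcr5 they were Sh2d2a (0.0211) and Bora (0.0224), and for Cxcr4 Plekhh1 (0.0387) and Ddx23 (0.0398). For Ccr6 they were Natd1 (0.0246) and Tmtc3 (0.0265), and for Cxcr3 Pira7 (0.0790) and Tsc22d1 (0.0793). A difference under 0.2 was found for 45 genes around Ccrl2 and 43 around Cxcr3, against 286 to 1502 around the other tested receptors. Under a fixed limit, receptors that vary more over the arrays have fewer such genes. Ccrl2 and Cxcr3 gave the largest differences of the tested receptors, so these counts do not show that their course is rare. Likeness over 4 arrays describes these arrays alone.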

How the data were processed

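Total RNA (50 ng per sample) was labelled with Cy3 and hybridised to 1-colour Agilent arrays, per the labels' protocols. The deposited scanner files, written by the Agilent program Feature Extraction (version 10.7.3.1 in the submitters' processing notes), give spot intensity, already corrected for background and detrended within the array in the processed signal, per the file headers. The authors' value table holds 1 normalized intensity per probe; how it was made is not given in the sources used here. All arrays lay on 1 slide. Here log2 of the processed signal was averaged over unflagged, non-control spots and scaled to each array's 75th percentile. Probes detected on at least 2 of the 4 arrays were tested with limma 3.58.1 in R 4.3.3 (two-sided, Benjamini-Hochberg over all probes tested). The method was tested on simulated data without an experiment effect and with planted differences larger than those of the receptors. That simulation does not cover differences of the size seen here. The number of arrays limits the precision, and the main p-values measure the spread between these 4 samples, in part pooled over probes. With the experiment as a block, limma gave all 7 tested receptors the same SE (0.354), pooled over all probes. Those blocked p-values do not measure the spread of each gene. The series description states 2 experiments, which pair the arrays; deviations of same-experiment arrays correlated at 0.42 over the tested probes. Alternatives covered normalization, background correction, the filter, outlier spots, a replicate block, the value table and leaving out each array. The receptors, gene lists and naming rule (from each list the called genes and the 3 largest differences; for each tested receptor its 2 most similar genes; some genes it names are not reported here) were chosen with earlier results of these data known.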

Additional observations from a re-analysis of the deposited data

Results flagged for a closer look

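Cxcr4 and Ccr7 differed in opposite directions in the 2 experiments, with the array labelled Ackr4ko below that labelled WT in experiment 1 and above it in experiment 2. For Cxcr4 the log2 difference was -0.87 in experiment 1 and 0.60 in experiment 2. For Ccr7 it was -0.074 and 0.48. With 1 array per genotype in each experiment, the difference between the experiments was not tested. No group has the 4 arrays needed to look for a sample far from the others.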

How the results depend on the processing

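The count of receptors passing the threshold was 0 under every alternative run. With the columns of the authors' value table taken as labelled, all 7 differences turned sign, which follows from columns that match the other genotype's array: Ackr3 -0.66, Ccrl2 -0.69, Ccr7 -0.053, Cxcr5 -0.31, Cxcr4 0.20, Ccr6 0.52 and Cxcr3 0.52. Scaling to the median turned Cxcr4 to 0.048. With 1 array left out, Ccr7 ranged from -0.30 to 0.70 and Cxcr4 from -0.56 to 0.28; the cause was not tested. Apart from these, signs held for all 7. The replicate block changed no receptor's call and passed 1 other receptor, 1 ligand and 3 signal genes; quantile normalization with the block passed 0 of them, and normexp with the block, added like it and the median of spots after seeing the data, 1 ligand and 3 signal genes. Scaling to the median passed 1 ligand and 2 signal genes. With 1 array left out, 0 to 1 ligands and 0 to 1 signal genes passed. The Ccrl2 difference was 0.55 with normexp and 0.80 with the median of spots, and that of Cxcr3 was -0.73 and -0.79. Over all probes, limma passed 5 without a block, 661 with it, 29 with normexp, 222 with scaling to the median, 1 with quantile normalization and 0 without a filter on dim probes (356 at an unadjusted p under 0.05). Ccrl2 was not among the probes detected on all 4 arrays, so that filter gave no value for it.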

Other observations

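Ackr2, an atypical receptor that removes inflammatory CC chemokines and was named here after its values were seen, was detected on all 4 arrays, unlike Ackr4. By its brightest probe, its level was 11.92 against 11.05 in experiment 1 and 10.61 against 12.32 in experiment 2, labelled Ackr4ko first. The log2 difference was 0.88 in experiment 1 and -1.72 in experiment 2, so Ackr2 ran in opposite directions in the experiments, in the reverse order of Cxcr4. Arrb1, an arrestin that binds activated receptors, gave 0.13 and -1.53.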
